A study of Homo sapiens with 12 samples.

Results

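The 9 genes described here encode amino acid transporters of the plasma membrane: SLC7A5, SLC3A2, SLC7A1, SLC7A6, SLC1A4, SLC1A5, SLC38A1, SLC38A2 and SLC43A1. They were taken by symbol from the first column of the 12 count tables. All 9 were listed among the 16384 symbols and all 9 passed the filter on low counts, as did 12645 symbols in all. SLC7A5 and SLC3A2 encode the light and the heavy chain of 1 transporter.

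RNA was sequenced from MDA-MB-231, an established human triple-negative breast cancer line, in 4 groups of 3 libraries. CAR cells were given CAR, which the series title identifies with cardamonin (a plant chalcone), at 10 µmol/L. JQ1 cells were given JQ1, a small molecule that keeps BET bromodomain proteins off acetylated histones, at 25 µmol/L, and Combination cells were given both agents at these doses. DMSO cells, given the solvent alone, are the control for all 3. All 12 libraries come from this single line, whose genotype label is WT, and the labels give no time of treatment. Whether the replicates are separate cultures is not stated, and the p-values therefore rest on a spread between libraries that may be technical.

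Cells take up essential amino acids through transporters of several families. SLC7 light chains such as SLC7A5 (LAT1) exchange a large neutral amino acid, leucine among them, for one leaving the cell, and need the glycoprotein SLC3A2 (the CD98 heavy chain) to reach the membrane. SLC1A5 and the SLC38 proteins bring in glutamine and other small neutral amino acids with sodium and so supply what SLC7A5 gives away. Leucine that enters is sensed at the lysosome by the regulators of the kinase mTORC1, and a shortage of amino acids raises translation of the transcription factor ATF4, which is known to induce several of these transporters.

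Library totals ran from 17449715 to 19754456 counts. Genes that mark this mesenchymal line were present: the summed normalised CPM (counts scaled to a common library size, described with the processing) of VIM, CD44, AXL, CAV1 and EGFR was 5529 to 5628 in CAR, 2969 to 3029 in JQ1, 2398 to 2559 in Combination and 5571 to 5744 in DMSO, while of 5 genes known to be low in it ESR1, PGR and CDH1 stayed at or below 0.641, EPCAM ran from 2.50 to 16.5 and ERBB2 from 96.7 to 154. Of the 3 leukocyte, 3 endothelial, 2 erythroid and 2 adipocyte markers listed, none exceeded 0.827 normalised CPM. The 4 fibroblast markers summed to 18.3 to 20.97 in CAR, 99.5 to 99.7 in JQ1, 42.6 to 43.5 in Combination and 37.2 to 39.2 in DMSO, nearly all of it PDGFRB, while DCN and LUM stayed at or below 0.177. Both marker sums move with JQ1, as several transporters do, and their part in the results was not tested. A pair of libraries stood apart. DMSO replicate 3 lay farther from its group than any other replicate (chi-square per degree of freedom 10.6 and 12.6, against 1.46 to 2.31 elsewhere), with a shift along transcript length. In it the transporters lay between 0.30 log2 below (SLC38A1) and 0.10 above (SLC3A2) the other DMSO libraries. Combination replicate 1 held 15 liver markers at a summed 185 normalised CPM, ALB at 84.4 the highest, while the other 11 libraries did not exceed 3.67. The transporters in that library lay within 0.09 log2 of the other Combination libraries.

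The start-site sequences of 4 of the genes are shown because the results turn on them: the 2 chains of 1 transporter, which separated under the combination, and SLC38A2 and SLC43A1, which rose and fell with JQ1. Each run is the 250 bases upstream of a RefSeq start site (assembly GRCh38.p14), written 5′ to 3′ on the gene's own strand. Capitals mark an E-box (CACGTG, bound by MYC and related factors) or an antioxidant response element core (TGACNNNGC, the letters bound by NFE2L2 with its small MAF partners). The windows are chr16:87869508-87869757 (minus strand) for SLC7A5, chr11:62881449-62881698 (plus strand) for SLC3A2, chr12:46372774-46373023 (minus strand) for SLC38A2 and chr11:57515703-57515952 (minus strand) for SLC43A1.
SLC7A5: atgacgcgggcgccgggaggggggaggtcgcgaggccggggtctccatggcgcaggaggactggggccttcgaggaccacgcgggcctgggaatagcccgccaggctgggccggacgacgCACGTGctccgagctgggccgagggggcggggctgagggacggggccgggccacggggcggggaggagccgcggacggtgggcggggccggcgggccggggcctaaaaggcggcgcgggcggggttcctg
SLC3A2: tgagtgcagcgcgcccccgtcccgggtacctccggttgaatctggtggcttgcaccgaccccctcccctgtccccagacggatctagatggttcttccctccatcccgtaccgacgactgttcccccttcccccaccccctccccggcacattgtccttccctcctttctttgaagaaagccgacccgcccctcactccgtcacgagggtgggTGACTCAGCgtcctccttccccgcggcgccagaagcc
SLC38A2: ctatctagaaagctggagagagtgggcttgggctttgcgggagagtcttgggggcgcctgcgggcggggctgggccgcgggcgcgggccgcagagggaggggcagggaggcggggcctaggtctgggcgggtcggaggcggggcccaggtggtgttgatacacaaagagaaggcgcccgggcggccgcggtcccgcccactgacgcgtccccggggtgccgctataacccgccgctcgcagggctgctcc
SLC43A1: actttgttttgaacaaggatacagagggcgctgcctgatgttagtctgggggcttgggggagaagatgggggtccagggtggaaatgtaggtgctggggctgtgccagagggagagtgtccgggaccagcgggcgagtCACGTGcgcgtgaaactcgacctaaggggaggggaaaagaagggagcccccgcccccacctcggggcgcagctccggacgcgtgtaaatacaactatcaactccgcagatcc

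Over the 16 windows RefSeq gave for the 9 genes, each of 300 bases with the 50 after the start included, 5 held the antioxidant response element core, 3 an E-box and 5 the letters TGATGNAA, the C/EBP-ATF element that ATF4 binds. Both strands were read and no match overlapped a match of another motif. Of 35116 windows of all genes, 13.3%, 7.26% and 3.62% held the 3 motifs in that order. In SLC7A5 the E-box begins at base -130, and a core, TGACGCAGC, begins at base -2 and runs across the start, so it is not capitalised in the run above. In SLC3A2 the core TGACTCAGC begins at base -37 and a C/EBP-ATF match, TTACATCA on the shown strand, follows the start at base 38. In SLC43A1 the E-box begins at base -112, and the SLC38A2 window held none of the 3 motifs. RefSeq gave 3 windows for SLC3A2 and 2 for SLC43A1. For these genes only the window with a match is shown, and the windows not shown held none of the 3 motifs. These matches describe the letters only and say nothing about binding in these cells.

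SLC7A5 mRNA was highest under JQ1 alone, while with CAR added its libraries overlapped those of CAR alone. It had 851, 849 and 835 normalised CPM in the CAR libraries, 1677, 1709.6 and 1684 in JQ1, 817, 884 and 861 in Combination, and 644, 656 and 597 in DMSO. Every treated library was above every DMSO library, the JQ1 libraries stood far above the rest, and the CAR and Combination libraries overlapped. In bulk RNA, fewer cells that express a gene and less of its RNA per cell cannot be told apart. Against DMSO, SLC7A5 rose with CAR (log2 fold change 0.42 ± 0.04 SE, adjusted p = 9.58e-09), with JQ1 (1.42 ± 0.04, adjusted p = 9.7e-19) and with the combination (0.43 ± 0.04, adjusted p = 7.1e-10). It fell by 0.98 ± 0.04 in Combination relative to JQ1 (adjusted p = 8.64e-15) and did not pass the test in Combination relative to CAR (0.02 ± 0.04, adjusted p = 0.716). That last value became -0.13 (adjusted p = 0.00365) when libraries were scaled by total counts, a scaling that moves the median of all genes by -0.14 in this comparison.

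SLC3A2 took the opposite course under the combination, where it reached its highest level. It had 435, 445 and 414 normalised CPM in CAR, 512, 522 and 516 in JQ1, 987, 986 and 954 in Combination, and 223, 214 and 233 in DMSO. No 2 groups overlapped. SLC3A2 rose with CAR (log2 0.95 ± 0.04, adjusted p = 3.63e-14), with JQ1 (1.21 ± 0.04, adjusted p = 1.4e-17) and with the combination (2.13 ± 0.04, adjusted p = 1.38e-21), a 4.37-fold change. In Combination it rose by 0.92 ± 0.04 relative to JQ1 (adjusted p = 2.31e-14) and by 1.18 ± 0.04 relative to CAR (adjusted p = 1.12e-17).

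**Figure D1:**
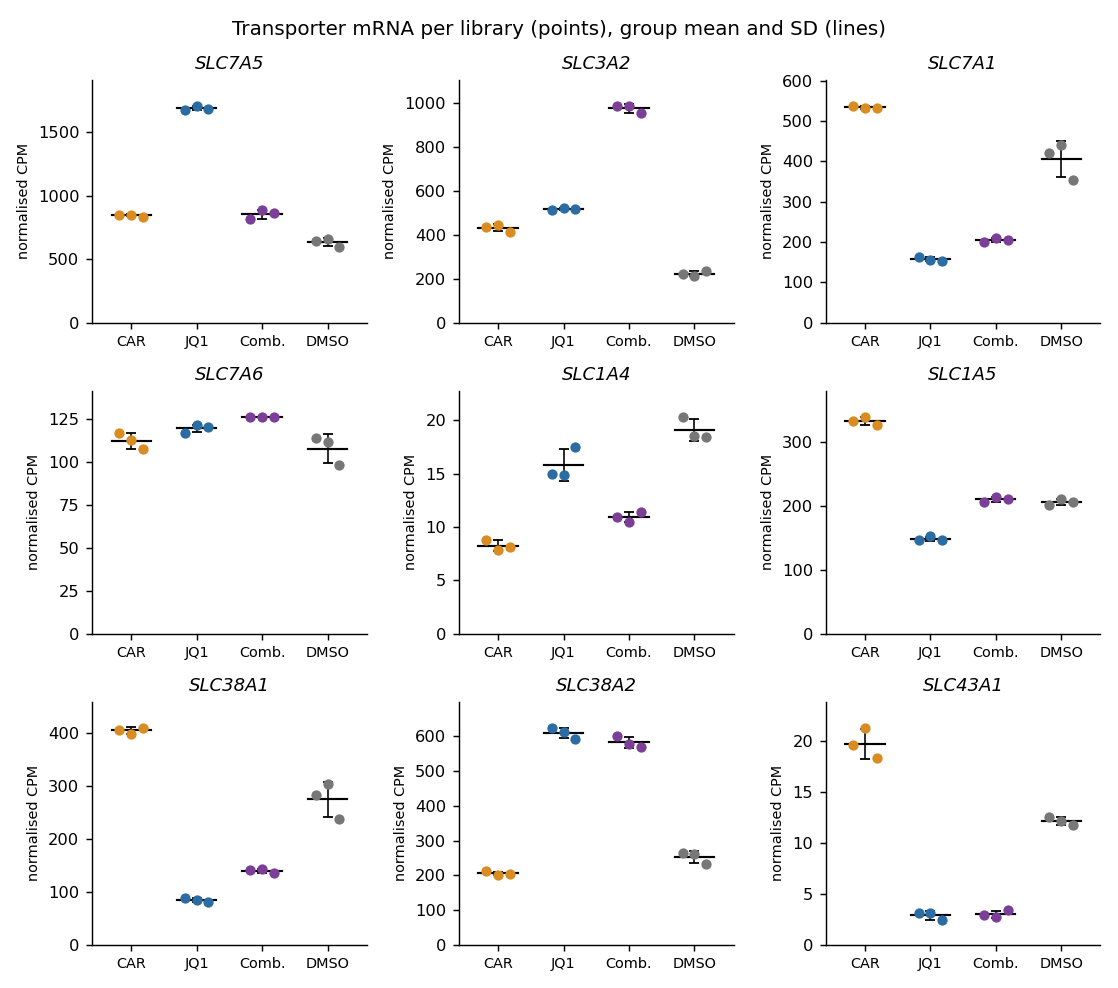
Normalised CPM (y axis, from 0) of the 9 transporter genes in each library (points), with group mean and SD (lines, n = 3), for CAR, JQ1, Combination (Comb.) and DMSO. SLC7A5 peaks in JQ1 at a mean of 1690.3, SLC3A2 in Combination at 976, and SLC7A1, SLC38A1 and SLC43A1 are low wherever JQ1 was given.

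The 2 chains therefore changed in different proportion. Per kb of transcript (4537 bases for SLC7A5 and 2161 for SLC3A2), the library ratio of SLC7A5 to SLC3A2 was 0.932, 0.909 and 0.960 in CAR, 1.56, 1.56 and 1.56 in JQ1, 0.394, 0.427 and 0.430 in Combination, and 1.38, 1.46 and 1.22 in DMSO. No 2 groups overlapped. The log2 ratio was lower than in DMSO by 0.53 in CAR and by 1.70 in Combination and higher by 0.21 in JQ1, and it was lower in Combination than in JQ1 by 1.90 and than in CAR by 1.16. Each of these 5 differences gave p = 0.1 in a two-sided exact permutation test, the smallest that 3 libraries against 3 allow. The size of the ratio depends on the length used: over all annotated exons (4745 and 5178 bases) it averaged 2.14 in CAR, 3.57 in JQ1, 0.956 in Combination and 3.10 in DMSO, with the same differences between groups.

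SLC3A2 also carries other light chains, and together they show how the partners of the heavy chain shifted. Among the 6 SLC7 light chains, SLC7A5, SLC7A6, SLC7A7, SLC7A8, SLC7A10 and SLC7A11, the summed level was 265 ± 1.91 normalised CPM per kb in CAR, 396 ± 3.91 in JQ1, 226 ± 7.53 in Combination and 167 ± 9.68 in DMSO (SD, n = 3). SLC3A2 itself was at 200 ± 7.25 in CAR, 239 ± 2.40 in JQ1, 451 ± 8.80 in Combination and 103 ± 4.62 in DMSO. On this length scale the light chains exceeded the heavy chain in all libraries of CAR, JQ1 and DMSO, by 1.29- to 1.77-fold, and were 0.477 to 0.513 of it in Combination. Over all annotated exons, SLC7A5 averaged 179.97 and SLC7A6 16.6 in Combination, beside 188 for SLC3A2. Whether the light chains lie below the heavy chain in Combination therefore depends on the length used. SLC7A8 and SLC7A10 had at most 3 counts in any library.

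The makeup of the light chains differed as well. SLC7A5 made up 70.2% of the light-chain level in CAR, 94.2% in JQ1, 83.3% in Combination and 83.5% in DMSO. SLC7A11, the cystine importer that supplies glutathione synthesis, made up 22.8% in CAR, 0.977% in JQ1, 7.73% in Combination and 5.82% in DMSO. These shares depend on the lengths used, 9645 bases for SLC7A11 and 4537 for SLC7A5. Without length scaling, SLC7A11 averaged 582 normalised CPM in CAR beside 845 for SLC7A5. SLC7A11 had 579, 574 and 594 normalised CPM in CAR, 44.0, 36.7 and 31.2 in JQ1, 172, 173 and 160.2 in Combination, and 97.3, 106 and 78.4 in DMSO, so that no 2 groups overlapped. It rose with CAR (log2 2.63 ± 0.12, adjusted p = 2.13e-08), fell with JQ1 (-1.33 ± 0.13, adjusted p = 3.36e-06) and rose with the combination (0.84 ± 0.12, adjusted p = 5.24e-05), its Combination level lying between those of the single agents.

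**Figure D2:**
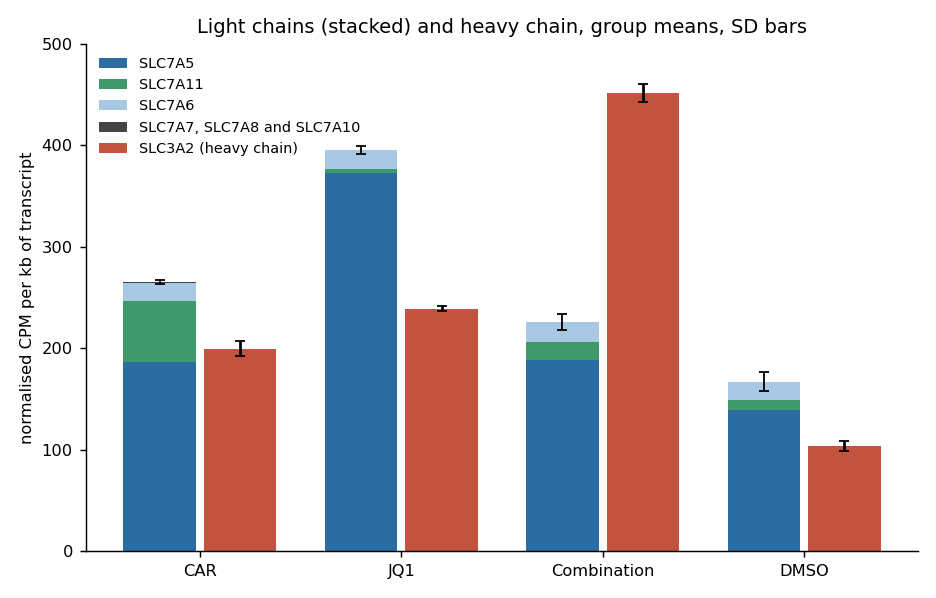
Group means of normalised CPM per kb of transcript (y axis, from 0) for 6 light chains stacked on the left of each pair and SLC3A2 on the right, with SD bars (n = 3) on the summed light chains and on SLC3A2. The light chains sum to 226 beside an SLC3A2 level of 451 in Combination, and to 167 beside 103 in DMSO. Lengths are those of the principal transcripts, and which bar is higher in Combination depends on the length used.

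SLC7A1 and SLC7A6 carry cationic amino acids, and they differed in how much they moved. SLC7A1 (CAT1), which brings in arginine and lysine without SLC3A2, had 538, 533 and 532 normalised CPM in CAR, 162, 156 and 153 in JQ1, 199.9, 210.0 and 206 in Combination, and 420.2, 441 and 355 in DMSO. The groups did not overlap, with CAR highest and JQ1 lowest. SLC7A1 rose with CAR (log2 0.40 ± 0.06, adjusted p = 6.62e-06) and fell with JQ1 (-1.37 ± 0.06, adjusted p = 4.44e-14) and with the combination (-0.98 ± 0.06, adjusted p = 5.52e-12). In Combination it was higher than in JQ1 (0.38 ± 0.06, adjusted p = 2.29e-05).

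SLC7A6, which exchanges arginine for neutral amino acids and sits with SLC3A2, changed least, with a span of 1.17-fold between its highest and lowest group means. It averaged 112 ± 4.62 normalised CPM in CAR, 119.5 ± 2.30 in JQ1, 126 ± 0.163 in Combination and 108 ± 8.44 in DMSO (SD, n = 3), and the CAR and DMSO libraries overlapped. SLC7A6 rose by 0.15 ± 0.05 with JQ1 (adjusted p = 0.00778) and by 0.23 ± 0.05 with the combination (adjusted p = 0.000204), and gave 0.06 ± 0.05 with CAR (adjusted p = 0.318). Both calls were lost under total-count scaling (0.03, adjusted p = 0.57, and 0.02, adjusted p = 0.714). SLC7A6 shares 17321 bases with SLC7A6OS on the opposite strand, and since the sources used here do not say whether counting used strand, reads of the pair cannot be told apart where they overlap.

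The 2 SLC1 exchangers gave opposite responses to CAR. SLC1A5 (ASCT2), the main sodium-dependent glutamine importer of many tumour cells, had 332, 339 and 327 normalised CPM in CAR, 147, 152 and 146 in JQ1, 206, 214 and 209.9 in Combination, and 202, 210.4 and 205 in DMSO. CAR stood above and JQ1 below all other libraries, while Combination and DMSO overlapped. SLC1A5 rose with CAR (log2 0.69 ± 0.04, adjusted p = 1.19e-12) and fell with JQ1 (-0.47 ± 0.04, adjusted p = 5.82e-11). Combination relative to DMSO gave 0.03 ± 0.04 (adjusted p = 0.473), which turned to -0.18 (adjusted p = 7.58e-05) under total-count scaling, a scaling that moves the median of all genes by -0.21 there.

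SLC1A4 (ASCT1), an exchanger of alanine, serine, cysteine and threonine, was weakly expressed. It had 8.80, 7.81 and 8.17 normalised CPM in CAR, 14.99, 14.9 and 17.5 in JQ1, 10.9, 10.5 and 11.4 in Combination, and 20.3, 18.5 and 18.5 in DMSO. No 2 groups overlapped, and every treated library was below DMSO. SLC1A4 fell with CAR by 1.21 ± 0.08 (adjusted p = 1.41e-10), with JQ1 by 0.28 ± 0.08 (adjusted p = 0.00238) and with the combination by 0.80 ± 0.08 (adjusted p = 7.86e-09). The level of SLC1A5 per kb was 63.8 times that of SLC1A4 in CAR, 14.9 times in JQ1, 30.4 times in Combination and 17.1 times in DMSO.

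The SLC38 pair, both sodium-coupled importers of glutamine and other small neutral amino acids, moved in opposite directions in each single-agent comparison. SLC38A2 (SNAT2), known in other cells as the carrier induced when amino acids run short, had 211, 201 and 205 normalised CPM in CAR, 624, 612 and 593 in JQ1, 601, 577 and 569 in Combination, and 263, 261 and 231 in DMSO. The 6 libraries that received JQ1 lay far above the 6 that did not, and JQ1 and Combination overlapped. SLC38A2 fell with CAR by 0.29 ± 0.04 (adjusted p = 1.03e-05) and rose with JQ1 (1.28 ± 0.04, adjusted p = 5.1e-17) and with the combination (1.21 ± 0.04, adjusted p = 1.06e-16). Combination relative to JQ1 gave -0.07 ± 0.04 (adjusted p = 0.216), and -0.06 (adjusted p = 0.0255) when DMSO replicate 3 was left out of the fit. It also passed in a fit of only the groups compared (-0.07, adjusted p = 0.0178). Under total-count scaling it was -0.15 (adjusted p = 0.00457), a scaling that moves the median of all genes by -0.09 there.

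SLC38A1 (SNAT1) had 407, 399 and 409.7 normalised CPM in CAR, 87.9, 85.1 and 81.5 in JQ1, 141, 144 and 136 in Combination, and 283, 303 and 238 in DMSO. No 2 groups overlapped, with CAR highest and JQ1 lowest. SLC38A1 rose with CAR (log2 0.56 ± 0.06, adjusted p = 6.45e-07) and fell with JQ1 (-1.69 ± 0.07, adjusted p = 7.74e-14) and with the combination (-0.97 ± 0.06, adjusted p = 1.3e-10). It was higher in Combination than in JQ1 by 0.72 ± 0.07 (adjusted p = 1.14e-07). Per kb, SLC38A2 was at 0.837 of SLC38A1 in CAR, 11.9 times it in JQ1, 6.86 times in Combination and 1.52 times in DMSO. On this length scale the more abundant member of the pair in CAR was SLC38A1 and in the other groups SLC38A2. Without length scaling the order in DMSO turned, with SLC38A1 at a mean of 275 normalised CPM and SLC38A2 at 252.

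SLC43A1 (LAT3), a carrier of leucine and other neutral amino acids that needs neither sodium nor SLC3A2, had the widest span of the 9, 6.86-fold between CAR and JQ1. It had 19.6, 21.3 and 18.3 normalised CPM in CAR, 3.15, 3.09 and 2.39 in JQ1, 2.89, 2.73 and 3.40 in Combination, and 12.5, 12.1 and 11.7 in DMSO. The libraries given JQ1 overlapped with each other and lay below all others. SLC43A1 rose with CAR (log2 0.70 ± 0.08, adjusted p = 2.9e-07) and fell with JQ1 (-2.07 ± 0.12, adjusted p = 2.46e-13) and with the combination (-2.01 ± 0.12, adjusted p = 4.08e-13). Combination relative to JQ1 gave 0.06 ± 0.16 (adjusted p = 0.784).

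**Figure D3:**
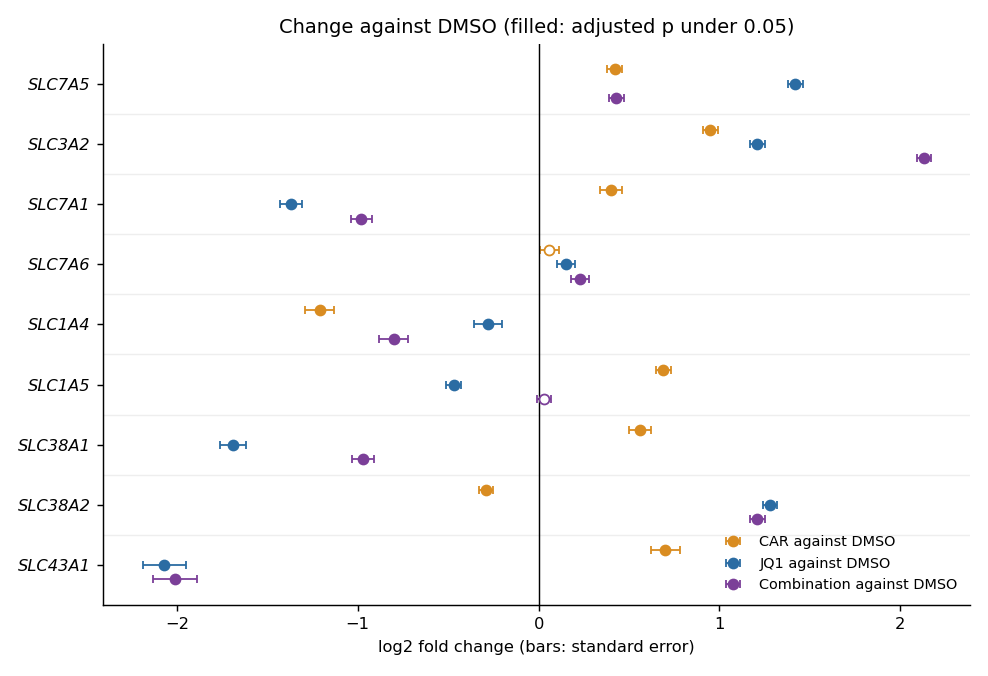
Log2 fold change against DMSO (x axis, bars ± SE) of the 9 transporters for CAR, JQ1 and Combination, with filled points at an adjusted p under 0.05. SLC7A5 and SLC3A2 lie right of 0 in all 3 comparisons, SLC1A4 left of 0 in all 3, and SLC7A1, SLC38A1 and SLC43A1 lie right of 0 for CAR and left of 0 for JQ1 and Combination.

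Over the 9 genes, CAR raised 6 (SLC7A5, SLC3A2, SLC7A1, SLC1A5, SLC38A1 and SLC43A1) and lowered 2 (SLC1A4 and SLC38A2) relative to DMSO, where 57.3% of all genes tested were called, 27.3% higher and 30.1% lower. JQ1 raised 4 (SLC7A5, SLC3A2, SLC7A6 and SLC38A2) and lowered 5, against 83.7% of all genes called, 41.5% higher and 42.2% lower. Combination raised the same 4 relative to DMSO and lowered SLC7A1, SLC1A4, SLC38A1 and SLC43A1, against 85.4% of all genes called, 42.6% higher and 42.8% lower. These 3 comparisons share the DMSO libraries. With most of the transcriptome called, the counts for JQ1 and Combination lie near the background. The median size of the log2 change was 0.56 over the 9 genes and 0.22 over all genes for CAR, 1.28 and 0.60 for JQ1, and 0.97 and 0.65 for Combination.

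Set against JQ1, Combination raised 4 (SLC3A2, SLC7A1, SLC1A5 and SLC38A1) and lowered 2 (SLC7A5 and SLC1A4), with 51.9% of all genes called, 26% higher and 25.9% lower. Set against CAR, Combination raised 4 (SLC3A2, SLC7A6, SLC1A4 and SLC38A2) and lowered 4 (SLC7A1, SLC1A5, SLC38A1 and SLC43A1), with 85.4% of all genes called, 42.4% higher and 43% lower. The SLC7A6 call among them (0.17 ± 0.05, adjusted p = 0.00305) was lost under total-count scaling (0.03, adjusted p = 0.616). The fall of SLC43A1 relative to CAR was the largest of these, at log2 -2.71 ± 0.11 (adjusted p = 4.91e-16), and SLC38A2 rose 2.83-fold (adjusted p = 2.6e-18). The 4.37-fold rise of SLC3A2 against DMSO and the fall of SLC43A1 against CAR bounded the range of changes over the 9 genes.

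Whether the 2 agents together gave the sum of their separate log2 changes was tested by the interaction, the Combination change against DMSO less the CAR change and less the JQ1 change. It passed for 5 of the 9 genes, 2 above and 3 below 0, with 38.3% of all genes called, 20.1% above and 18.2% below. SLC7A5 departed most: the separate changes sum to 1.84, the combination gave 0.43, and the interaction was -1.40 ± 0.05 (adjusted p = 3.12e-13), with the smallest p of all 12645 genes tested. SLC3A2 matched the sum to within its error, 2.13 beside 2.16 (interaction -0.03 ± 0.05, adjusted p = 0.672).

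The other departures were smaller. SLC1A4 lay above the sum (0.68 ± 0.12, adjusted p = 0.000169), as did SLC38A2 (0.23 ± 0.06, adjusted p = 0.0062). SLC43A1 lay below it (-0.64 ± 0.18, adjusted p = 0.00663), its Combination libraries overlapping those of JQ1, and so did SLC1A5 (-0.19 ± 0.05, adjusted p = 0.0048). SLC7A1, SLC7A6 and SLC38A1 gave -0.02, 0.02 and 0.16 with SE of 0.08, 0.07 and 0.09, none passing the test. The SLC38A1 value became 0.26 (adjusted p = 1.35e-05) without DMSO replicate 3.

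**Figure D4:**
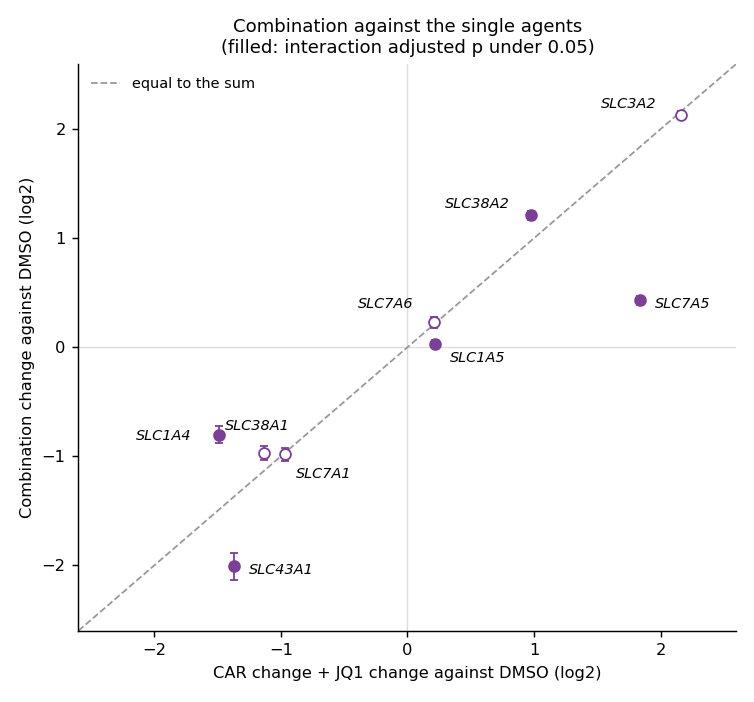
Log2 change of Combination against DMSO (y axis, bars ± SE) plotted against the sum of the CAR and JQ1 changes (x axis) for the 9 transporters, with a dashed line of equality and filled points at an interaction adjusted p under 0.05. SLC7A5 lies far under the line, at 0.43 for a sum of 1.84, and SLC3A2 lies on it, at 2.13 for a sum of 2.16.

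Per length, the sum over the 9 genes, the heavy chain SLC3A2 included, was higher in every treated group, although single genes moved both ways. Relative to DMSO, CAR lowered 2 of the 9, JQ1 5 and Combination 4. SLC7A5 and SLC3A2 held the largest shares in every group, so the sum leans on them, and a sum without SLC3A2 was not computed. The summed level of the 9 genes, in CPM per kb scaled by library total, was 709 ± 11.3 in CAR, 831 ± 7.98 in JQ1, 835 ± 5.56 in Combination and 514 ± 17.1 in DMSO (SD, n = 3). Each treated group lay above DMSO without overlap (exact permutation p = 0.1, the smallest possible), and Combination and JQ1 overlapped (p = 0.5). The share of the sum held by SLC3A2 was 28.8% in CAR, 28.3% in JQ1, 50.1% in Combination and 21.5% in DMSO, and that of SLC7A5 was 26.9%, 44.2%, 20.9% and 28.99% in the same groups. Sums are weighted by the lengths: without length scaling the log2 difference of Combination from JQ1 was -0.19, in place of 0.01.

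By principal transcript length, the order per kb in DMSO was SLC7A5 at 139 ± 6.91 normalised CPM per kb, SLC3A2 at 103 ± 4.62, SLC1A5 at 71.4 ± 1.51, SLC7A1 at 55.2 ± 6.12, SLC38A2 at 51.5 ± 3.64, SLC38A1 at 34.1 ± 4.13, SLC7A6 at 17.1 ± 1.34, SLC43A1 at 4.67 ± 0.153 and SLC1A4 at 4.19 ± 0.232 (SD, n = 3). SLC7A1 and SLC38A2 differed by less than the SD of SLC7A1. In Combination, SLC3A2 at 451 ± 8.80 led SLC7A5 at 188 ± 7.57 and SLC38A2 at 119.2 ± 3.36, and the rest were at or below 72.8. The order depends on the length used: over all annotated exons SLC3A2 was at 43.1 ± 1.93 in DMSO, below SLC1A5 at 61.8 ± 1.30 and SLC7A1 at 52.7 ± 5.84, and in Combination SLC3A2 was at 188 ± 3.67 and SLC7A5 at 179.97 ± 7.24. GENCODE v29 lists SLC7A5P1 and SLC7A5P2, partial copies of SLC7A5 on chromosome 16 that are not in the tables, so SLC7A5 reads shared with them may have been dropped or moved.

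Of 42 further amino acid transporters, 18 had enough counts to be tested. The 15 others listed in the tables had at most 11 counts in a library. Relative to DMSO, CAR raised 9 of the 18 (50%, against 27.3% of all genes) and lowered 5 (27.8%, against 30.1%). JQ1 raised 6 (33.3%, against 41.5%) and lowered 10 (55.6%, against 42.2%), and Combination raised 7 (38.9%, against 42.6%) and lowered 9 (50%, against 42.8%). Their median log2 change was 0.18 for CAR, -0.26 for JQ1 and -0.09 for Combination, and that of all genes was -0.02, -0.01 and 0.00.

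By name, SLC43A2 (LAT4), the relative of SLC43A1 with a similar range of substrates, averaged 7.86 normalised CPM in CAR, 19.4 in JQ1, 30.6 in Combination and 5.98 in DMSO. It rose with JQ1 (log2 1.70 ± 0.09, adjusted p = 5.43e-14) and with the combination (2.36 ± 0.08, adjusted p = 5.27e-17). SLC38A10 rose with JQ1 to 209.3, 221 and 226, and lay at 53.9, 55.6 and 54.0 in CAR, 165, 165 and 168 in Combination and 66.6, 64.4 and 69.0 in DMSO. SLC6A6, the taurine importer, had 294, 289 and 292 in CAR, 165, 151 and 155 in JQ1, 388, 384 and 386 in Combination, and 184, 183 and 155 in DMSO, with an interaction of 0.55 ± 0.07 (adjusted p = 5.56e-06).

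The lysosomal exporters CTNS, which releases cystine, and SLC66A1, which releases cationic amino acids, rose with the combination by 1.03 ± 0.06 (adjusted p = 3.58e-13) and 1.08 ± 0.07 (adjusted p = 3.87e-12). Both exceeded the sum of the single agents by 0.50 (adjusted p = 9.41e-05 for CTNS and 0.000617 for SLC66A1). The glycine importer SLC6A9 had 5.64, 6.27 and 5.72 in CAR, 0.907, 2.43 and 0.757 in JQ1, 0.768, 0.988 and 1.05 in Combination, and 8.48, 9.46 and 6.75 in DMSO, a fall of 3.12 ± 0.27 with the combination (adjusted p = 7.07e-09).

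**Figure D5:**
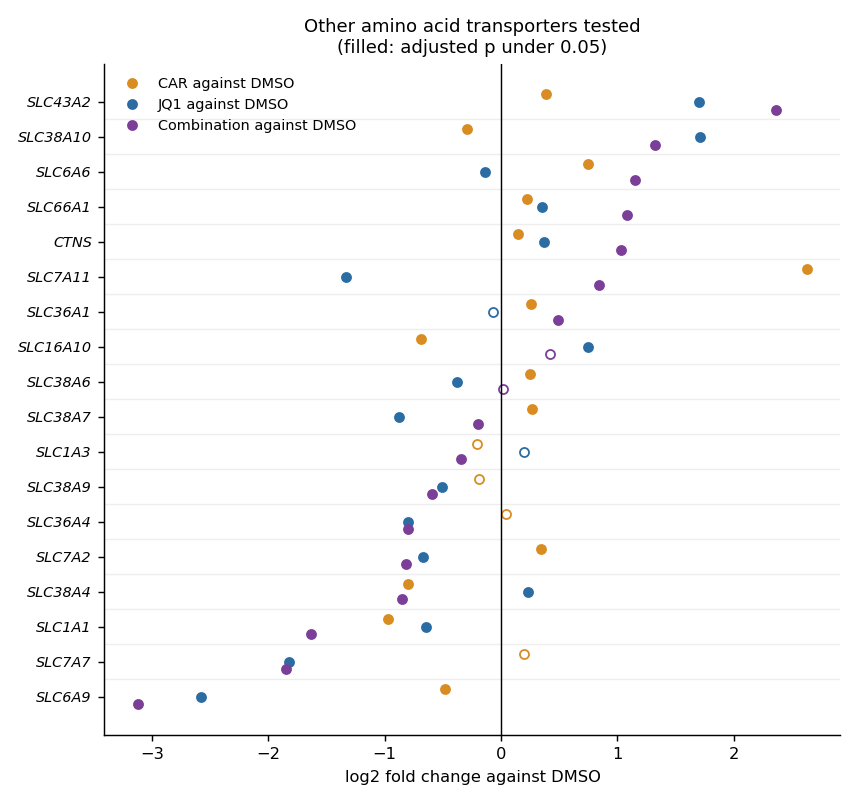
Log2 fold change against DMSO (x axis) of the 18 further amino acid transporters tested, for CAR, JQ1 and Combination, ordered by the Combination value, with filled points at an adjusted p under 0.05. SLC43A2 is at the top with 2.36 in Combination and SLC6A9 at the bottom with -3.12, while SLC7A11 has its largest value, 2.63, in CAR.

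Regulators of the amino acid response and targets of ATF4 were mostly higher with CAR and mostly lower with JQ1. Of 31 tested, CAR raised 20 (64.5%, against 27.3% of all genes) and lowered 2 (6.45%, against 30.1%) relative to DMSO. JQ1 raised 7 (22.6%, against 41.5%) and lowered 23 (74.2%, against 42.2%). Combination raised 8 (25.8%, against 42.6%) and lowered 17 (54.8%, against 42.8%). Their median log2 change was 0.26 for CAR, -0.33 for JQ1 and -0.16 for Combination. ATF4 mRNA had 319, 330.1 and 323 normalised CPM in CAR, 123, 129.5 and 122 in JQ1, 150.2, 150.5 and 151 in Combination, and 252, 245 and 289 in DMSO. It rose with CAR by 0.31 ± 0.05 (adjusted p = 1.03e-05) and fell by 1.07 ± 0.05 with JQ1 (adjusted p = 7e-15) and by 0.80 ± 0.05 with the combination (adjusted p = 1.01e-12).

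ASNS and CTH did not share this order of group means, and TRIB3 did. ASNS, asparagine synthetase, had 61.1, 70.1 and 64.6 normalised CPM in CAR, 96.4, 94.6 and 99.2 in JQ1, 289, 296 and 270.1 in Combination, and 48.5, 53.2 and 56.5 in DMSO, a rise of 2.43 ± 0.06 with the combination (adjusted p = 3.71e-20) with a level 2.38 times the one the summed log2 changes give (interaction adjusted p = 2.68e-10). TRIB3, a pseudokinase that feeds back on ATF4, averaged 35.7 ± 3.59 in CAR, 3.09 ± 0.163 in JQ1, 4.51 ± 0.420 in Combination and 25.6 ± 1.27 in DMSO. CTH, which makes cysteine from cystathionine, averaged 9.37 ± 0.908 in CAR, 32.8 ± 1.44 in JQ1, 32.4 ± 0.363 in Combination and 6.80 ± 0.397 in DMSO. DDIT3, the stress factor CHOP, rose with CAR by 1.14 ± 0.08 (adjusted p = 1.59e-10) and with the combination by 0.64 ± 0.09 (adjusted p = 5.13e-07), and gave 0.07 ± 0.09 with JQ1 (adjusted p = 0.495).

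Genes that carry the amino acid signal to mTORC1 were mostly higher in both groups given JQ1. This list shares SESN2 with the list of the amino acid response and SLC38A9 with the further transporters. Of 33 tested, JQ1 raised 22 (66.7%, against 41.5% of all genes) and lowered 9 (27.3%, against 42.2%) relative to DMSO. Combination raised 21 (63.6%, against 42.6%) and lowered 6 (18.2%, against 42.8%). CAR raised 8 (24.2%) and lowered 10 (30.3%), near the 27.3% and 30.1% of all genes. Their median log2 change was -0.01 for CAR, 0.43 for JQ1 and 0.51 for Combination. SESN3, of the sestrin family that holds mTORC1 back, averaged 7.33 ± 0.423 normalised CPM in CAR, 180 ± 3.01 in JQ1, 122 ± 2.15 in Combination and 21.1 ± 2.19 in DMSO. CASTOR2, of the arginine sensor family, averaged 15.1 ± 0.844 in CAR, 87.9 ± 1.92 in JQ1, 118 ± 1.46 in Combination and 25.2 ± 0.209 in DMSO. The Rag GTPase RRAGC averaged 42.3 ± 1.05, 96.2 ± 1.64, 145 ± 2.45 and 45.1 ± 1.45 in the same groups, and its activator FLCN 87.1 ± 3.96, 117 ± 3.45, 192 ± 2.90 and 79.9 ± 2.21. The 4 genes passed the interaction test above 0, RRAGC at 0.68 ± 0.06 and CASTOR2 at 1.17 ± 0.07 among them. Among the genes lowered by both JQ1 and the combination, RRAGD averaged 28.4 ± 1.35 in CAR, 10.0 ± 0.787 in JQ1, 17.7 ± 1.28 in Combination and 26.9 ± 1.37 in DMSO. NPRL3, lowered likewise, averaged 52.3 ± 0.340, 23.4 ± 2.75, 26.8 ± 0.129 and 43.5 ± 1.38 in that order of groups.

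Enzymes of glutamine, glutamate, serine and branched-chain metabolism were called in both directions. Several of them, ASNS and PYCR1 included, are also in the list of the amino acid response and ATF4, so the counts of these lists are not separate results. Of 23 tested, CAR raised 10 (43.5%, against 27.3% of all genes) and lowered 8 (34.8%, against 30.1%) relative to DMSO. JQ1 raised 9 (39.1%, against 41.5%) and lowered 12 (52.2%, against 42.2%), and Combination raised 8 (34.8%, against 42.6%) and lowered 12 (52.2%, against 42.8%). BCAT1, which transaminates leucine and the other branched-chain amino acids, averaged 154 ± 2.37 normalised CPM in CAR, 51.1 ± 2.36 in JQ1, 29.6 ± 0.619 in Combination and 135 ± 10.6 in DMSO. OAT, of the same list, rose with the combination. It averaged 167 ± 0.917 in CAR, 280 ± 8.67 in JQ1, 337 ± 5.98 in Combination and 200 ± 7.37 in DMSO.

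Of 5 tested partners of SLC7A5 and SLC3A2, 4 lay below the sum of the single agents in the interaction test, as did 18.2% of all genes. ITGB1, the integrin that SLC3A2 binds, averaged 973 ± 25.9 normalised CPM in CAR, 1504.6 ± 34.2 in JQ1, 1005 ± 21.99 in Combination and 1109.7 ± 27.2 in DMSO, with an interaction of -0.39 ± 0.05. NEDD4L, a ubiquitin ligase of membrane transporters, fell by 1.13 ± 0.05 with JQ1 and by 1.23 ± 0.05 with the combination. BSG (CD147), which associates with the SLC3A2 complex, averaged 445 ± 4.35 in CAR, 939 ± 27.0 in JQ1, 899 ± 24.2 in Combination and 468 ± 17.02 in DMSO.

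Likeness to 4 of the transporters was measured as Pearson's r of log2 CPM over the 12 libraries, among 10406 genes averaging 5 CPM or more. The libraries fall into the 4 treatment groups, so r here mostly compares 4 group means and is a description only. For SLC7A5 the nearest were ENAH (0.977), AOPEP (0.973), DNAH14 (0.958), DLC1 (0.957) and LRP4 (0.956). For SLC3A2 they were EMC3 (0.998), GSR (0.995), ALG2 (0.992), PITRM1 (0.991) and TMEM208 (0.990). GSR, glutathione reductase, averaged 190.2 normalised CPM in CAR, 259 in JQ1, 778 in Combination and 82.5 in DMSO.

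For SLC38A2 the nearest were UNC13B, AGTPBP1, CBFA2T2, SOCS7 and CCNY, all with r of at least 0.998. For SLC43A1 they were PYCR1 (0.998), HSPH1 (0.997), IL7R (0.996), GAR1 (0.996) and MTA2 (0.996). PYCR1, which completes proline synthesis, averaged 91.1 normalised CPM in CAR, 13.7 in JQ1, 14.1 in Combination and 57.0 in DMSO.

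MYC and NFE2L2, whose motifs were searched, changed by no more than 0.45 log2 against DMSO. MYC had 167, 168 and 164 normalised CPM in CAR, 125, 125 and 129 in JQ1, 152, 162 and 157 in Combination, and 122, 122 and 122 in DMSO. It rose with CAR (log2 0.45 ± 0.04, adjusted p = 1.74e-09) and with the combination (0.37 ± 0.04, adjusted p = 5.84e-09), and gave 0.05 ± 0.04 with JQ1 (adjusted p = 0.198). NFE2L2 had 204, 208 and 210.2 in CAR, 232, 235 and 234 in JQ1, 241, 236 and 235 in Combination, and 199, 200.2 and 199 in DMSO. It rose with JQ1 (0.23 ± 0.03, adjusted p = 1.59e-06) and with the combination (0.25 ± 0.03, adjusted p = 3.93e-07), and gave 0.06 ± 0.03 with CAR (adjusted p = 0.152). The NFE2L2 call with the combination was lost under total-count scaling (0.05, adjusted p = 0.199).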

How the data were processed

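Stranded poly(A) RNA libraries were made from RNA with an integrity number of at least 7, per the labels' protocols. The authors deposited raw counts per gene symbol, not normalised, in 1 table per library. Trimmomatic, HISAT2, HTSeq and the build hg38 appear in the submitters' processing notes. Versions, settings and strand use are not given there.

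The deposited counts were fitted with edgeR 4.0.16 in R 4.3.3: filterByExpr by group (minimum count 10, minimum total 15), TMM scaling, and a robust quasi-likelihood fit to all 12 libraries with 1 coefficient per group (8 residual degrees of freedom). Calls used a Benjamini-Hochberg adjusted p under 0.05 over the 12645 genes tested. Normalised CPM divides each count by the TMM-scaled library total, on the usual CPM scale. Likeness used log2 CPM with a prior count of 2. Levels per kb used the principal transcript of GENCODE v29, where 97.3% of symbols matched. Totals of 17449715 to 19754456 counts put 3 counts at 0.152 to 0.172 CPM, a limit of counting error only.

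The 9 genes, the gene lists and the tests were chosen with earlier results of these data known. All 9 are reported. From each list, up to 4 genes of smallest adjusted p in a comparison and at least 5 CPM could be named, plus up to 2 against the list's median. Not all genes that met this rule are named, so those named are examples. SLC7A11, ASNS, ATF4, DDIT3, MYC and NFE2L2 are named throughout. Some listed genes entered every test and count but are not reported by name. Scaling, filters, DESeq2 1.42.0, the replicate number as a block, a fit of only the groups compared, the length used and leaving out libraries were alternatives. The fit was tested on simulated data.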

Additional observations from a re-analysis of the deposited data

Results flagged for a closer look

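The effect of CAR was not the same with JQ1 as without it for 5 of the 9 transporters, by edgeR's test of the interaction. That test called 38.3% of all 12645 genes. The interaction was -1.40 for SLC7A5, 0.68 for SLC1A4, -0.64 for SLC43A1, 0.23 for SLC38A2 and -0.19 for SLC1A5 on the log2 scale. CAR changed SLC7A5 by -0.98 when added to JQ1, against 0.42 when given alone. It changed SLC1A4 by -0.53 on top of JQ1, against -1.21 alone, and SLC1A5 by 0.50 on top of JQ1, against 0.69 alone. SLC38A2 and SLC43A1 gave -0.07 and 0.06 on top of JQ1, neither passing the test, against -0.29 and 0.70 alone.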

How the results depend on the processing

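Over 54 pairs of a transporter and a comparison, 1112 of 1125 values from alternatives kept direction and call, 4 lost the call, 7 gained it and 2 reversed. Scaling by total counts reversed 2 values that had not passed the test, SLC1A5 in Combination against DMSO (-0.18) and SLC7A5 in Combination against CAR (-0.13). Among list genes it reversed LAPTM4B (-0.10), CEBPB (-0.17) and RPTOR (-0.13) in Combination against DMSO. It also reversed ITGB1 (-0.09) and BCKDK (-0.00) in Combination against CAR. LAPTM4B and BCKDK had passed the test in these comparisons with TMM scaling. That scaling moves the median of all genes by -0.06 in CAR, -0.12 in JQ1 and -0.21 in Combination against DMSO, by -0.09 in Combination against JQ1 and by -0.14 against CAR. SLC38A2 gained the call in Combination against JQ1 under total-count scaling (-0.15) and in a fit of only the groups compared (-0.07). With DMSO replicate 3 left out, SLC38A1 gained the interaction call (0.26), and SLC38A2 (-0.06) and SLC7A6 (0.08) gained calls in Combination against JQ1. Leaving out that library and Combination replicate 1, an alternative chosen after seeing the data, gave 0.25 for SLC38A1 and -0.09 for SLC38A2. The cause was not tested.

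The number of transporters called stayed at 8 for CAR, 9 for JQ1 and 8 for Combination against DMSO and 8 against CAR when any 1 library was left out, and ran from 6 to 8 for Combination against JQ1 and from 5 to 6 for the interaction. Replicate numbers did not pair the libraries: the deviations of same-numbered libraries correlated at -0.309 to 0.26, with 3 of 18 pairs above 0.1. With the replicate block, 8 transporters were called for CAR, 9 for JQ1 and 8 for Combination.

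The summed level depended on the scale. Its log2 differences for CAR, JQ1 and Combination against DMSO, Combination against JQ1 and Combination against CAR were 0.46, 0.69, 0.70, 0.01 and 0.23. They were 0.38, 0.53, 0.34, -0.19 and -0.04 with no length scaling, 0.53, 0.81, 0.91, 0.09 and 0.38 with TMM scaling, and 0.41, 0.65, 0.41, -0.23 and 0.00 over all annotated exons, a length chosen after seeing the data. When 1 library was left out they ran from 0.44 to 0.48, 0.66 to 0.71, 0.67 to 0.71, 0 to 0.01 and 0.22 to 0.24. The log2 ratio of SLC7A5 to SLC3A2 in the same comparisons ran from -0.61 to -0.47, 0.13 to 0.27, -1.77 to -1.64, -1.93 to -1.86 and -1.19 to -1.12.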
